A study of Mus musculus with 6 samples.

Results

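The BCL2 family sets how close a cell stands to death through its mitochondria, and 10 of its genes were followed here among the 35275 gene IDs of the count table. The genes were chosen by name, and each symbol mapped to 1 row of the table. They were divided by role into 4 survival genes (Bcl2, Bcl2l1, Bcl2l2 and Mcl1) and 6 death genes (the effectors Bax and Bak1, and the BH3-only genes Bcl2l11, Bbc3, Pmaip1 and Bid). Of the 10, 9 had enough reads to be tested, and Pmaip1 had none in any library.

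The cells were Melb-a, an immortal line of mouse melanoblasts (pigment cell precursors) of C57BL/6J genotype, and the line is labelled a melanocyte from skin. All 6 cultures were moved from growth medium with stem cell factor and fibroblast growth factor to DMEM with 10% serum, 2 nM of the hormone analog NDP-alpha-MSH and 200 nM of phorbol-myristate-acetate. For 48 h they also received the vehicle DMSO (3 samples) or 10 µM iBRD9 (3 samples), an inhibitor of the bromodomain of BRD9, a protein of the noncanonical BAF remodeler of chromatin. The treated arm is thus 1 compound at 1 dose in 1 cell line, and both arms were in differentiation medium. Effects through BRD9 and other effects of the compound cannot be told apart. The labels call the samples of a group independent without saying what was separate, so p-values measure the spread between these samples.

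Survival proteins of the family hold the effectors BAX and BAK in check at the outer mitochondrial membrane. BH3-only proteins carry stress signals: they occupy the survival proteins or engage the effectors directly, and freed effectors open the membrane so that cytochrome c escapes and caspases are activated. In pigment cells the family is known for BCL2 itself, a target of MITF without which mice lose their melanocytes and turn grey.

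Libraries held 22846391 to 29680952 counts. DMSO replicate 1 stood apart: the chi-square per degree of freedom of its counts was 29.2 and 37.5 against the other vehicle libraries, which stood at 3.06 from each other, and 1.93 to 6.33 among the iBRD9 libraries. Over all genes 10311 were called without it and 8262 with it, and results that rest on it are given both ways. All 8 melanocyte lineage markers were read, at a summed 15800 to 17900 CPM (counts relative to library size after TMM scaling, which aligns the libraries on the bulk of their genes) with DMSO and 15100 to 16600 CPM with iBRD9. Within that sum the markers parted: Tyr (-2.61), Sox10 (-0.92), Tyrp1 (-0.66) and Mlana (-0.62) were lower in log2 fold change of iBRD9 over DMSO. Dct was higher (0.31), and Mitf, Pmel and Kit did not pass. The median of all 8 lineage markers was -0.37. Markers of other cell types were low. Leukocyte markers summed to 6.21 to 7.77 CPM and 5.53 to 6.56 CPM with Ptprc and Cd3e at 0, and keratinocyte markers to 3.5 to 4.21 CPM and 3.64 to 4.35 CPM with Krt5 and Krt1 at 0. Those of fibroblasts went from 75.4 to 99.7 CPM up to 127 to 143 CPM, and those of endothelium from 1.46 to 1.60 CPM up to 4.42 to 6.16 CPM, with no marker of either list at 0 over all libraries. Among fibroblast markers Dcn rose from 51.2 to 120.5 CPM while Col1a2 fell from 29.6 to 7.64 CPM, and most of the endothelial sum was Kdr. Of the leukocyte markers, Cd68 fell from 6.78 to 4.19 CPM while Csf1r rose from 0.279 to 1.71 CPM. The part of other cell types in the results was not tested. In bulk RNA a change in the number of cells that express a gene and a change in RNA per cell cannot be told apart.

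Of the 9 tested members, 3 were higher with iBRD9 and 3 lower at an adjusted p under 0.05, and 3 did not pass. Among all 13602 tested genes 60.7% were called, 29.8% higher and 30.9% lower (4057 and 4205 genes, or 4999 and 3385 with library size alone), so the members' share was near that of any gene in this comparison. At an adjusted p under 0.01, 2 members were higher and 3 lower, where 44.6% of all tested genes were called, 20.8% higher and 23.8% lower. Their median log2 fold change (iBRD9 over DMSO) was 0.03, against 0.01 over all tested genes, and the median size of change regardless of sign was 0.37 against 0.39. Survival and death genes each moved in both directions. Among survival genes Bcl2 and Bcl2l2 rose and Bcl2l1 fell. Of the death genes, Bcl2l11 rose while Bak1 and Bid fell. For 7 of the 9 members no DMSO library reached the range of iBRD9, where 68.0% of all tested genes had groups that did not overlap.

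Bcl2l11, Bcl2l1 and Bak1 had the largest changes among the 9 tested members, and the RefSeq promoters of these genes are printed to show the sequence at their starts. Each runs 5′ to 3′ along the gene's strand, from 250 bases before a start to 50 bases after it, in build GRCm38.p6, which is older than the build GRCm39 that the submitters' notes name. Capitals mark matches on either strand to any of 5 motifs: the E-boxes CACGTG and CATGTG (read by MITF and related factors), the cAMP response element TGACGTCA, the AP-1 site TGANTCA and the FOXO site GTAAACA. No searched motif holds another of them.

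Bcl2l11 (chr2:128125788-128126087, + strand, the first of 2 listed starts): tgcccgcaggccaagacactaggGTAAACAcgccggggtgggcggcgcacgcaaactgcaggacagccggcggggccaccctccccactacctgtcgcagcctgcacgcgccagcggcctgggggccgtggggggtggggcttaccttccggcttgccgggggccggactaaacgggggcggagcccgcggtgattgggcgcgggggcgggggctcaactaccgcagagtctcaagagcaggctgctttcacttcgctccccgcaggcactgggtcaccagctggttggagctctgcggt
Bcl2l1 (chr2:152828440-152828739, - strand, the first of 3 listed starts): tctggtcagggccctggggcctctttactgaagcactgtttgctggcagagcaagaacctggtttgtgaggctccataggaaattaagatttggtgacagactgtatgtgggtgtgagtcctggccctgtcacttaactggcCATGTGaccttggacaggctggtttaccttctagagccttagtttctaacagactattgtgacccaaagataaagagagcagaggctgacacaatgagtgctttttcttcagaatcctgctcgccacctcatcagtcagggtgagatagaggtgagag
Bak1 (chr17:27028578-27028877, - strand, the only listed start): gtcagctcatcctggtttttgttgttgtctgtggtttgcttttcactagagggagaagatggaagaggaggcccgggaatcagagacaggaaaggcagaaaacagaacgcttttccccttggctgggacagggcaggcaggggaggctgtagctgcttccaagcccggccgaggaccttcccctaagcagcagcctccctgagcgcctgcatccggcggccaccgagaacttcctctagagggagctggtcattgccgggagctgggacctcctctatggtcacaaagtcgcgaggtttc

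The Bcl2l11 window holds a FOXO match 227 bases before the start, a motif found in 3.65% of the 32851 promoters in the table. That of Bcl2l1 holds a CATGTG match 108 bases before the start, found in 14.2% of promoters. Starts are listed by coordinate, so on the - strand the printed Bcl2l1 window is the most downstream of its 3 starts. The Bak1 window holds none of the 5 motifs. Promoters were searched for 9 of the 10 members, all but Pmaip1. Among the others, Bax holds CACGTG (7.15% of promoters) 9 bases before its start and again from base 36 after it, and of the 3 starts of Bbc3 the second holds a FOXO match and the third a CACGTG match. The promoters of Bcl2, Bcl2l2, Mcl1 and Bid hold none, nor do the other starts of Bcl2l11 and Bcl2l1. No window searched for these 9 members holds the cAMP element (1.79% of promoters) or the AP-1 site (7.81%). These are matches of letters, not measured binding sites.

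**Figure D1:**
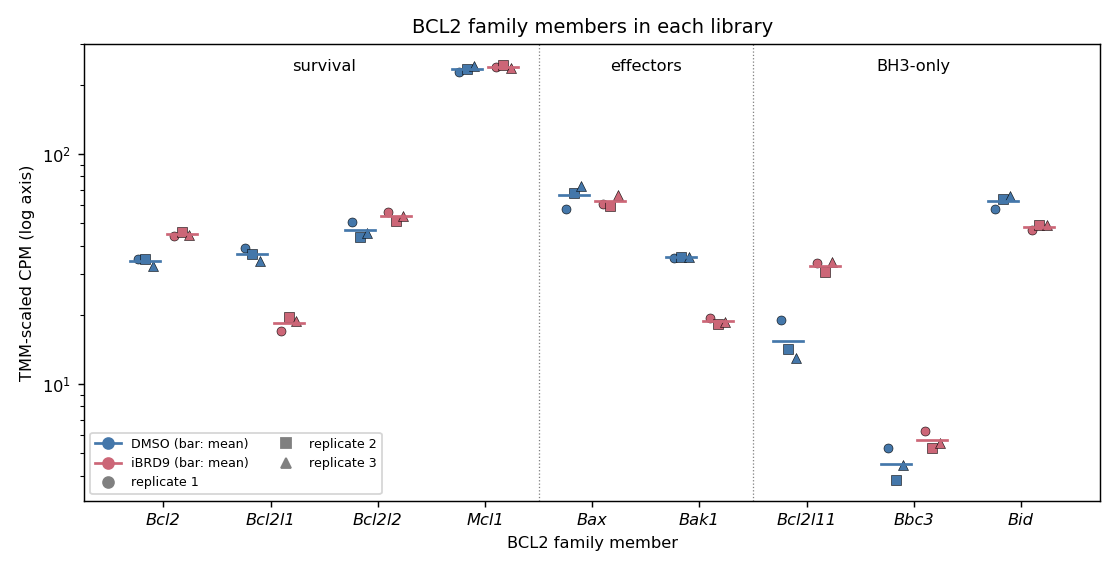
TMM-scaled CPM (y axis, log scale) of the 9 tested members (x axis) in each of 3 DMSO and 3 iBRD9 libraries; symbols give the replicate number and bars the group mean. Bcl2l1 and Bak1 sit between 34.4 and 39.1 CPM with DMSO and between 17.0 and 19.6 CPM with iBRD9, and Bcl2l11 moves the other way.

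Among the survival genes, Bcl2l1, which encodes BCL-XL, read 39.1, 36.8 and 34.4 CPM with DMSO and 17.0, 19.6 and 18.8 CPM with iBRD9. Every iBRD9 library lay below every DMSO library by a wide margin. The log2 fold change was -0.997 (SE 0.084, adjusted p = 3.72e-05), or 2.00-fold lower (36.8 ± 2.315 against 18.4 ± 1.32 CPM, SD, n = 3). Of all tested genes, 15.5% had a larger change in either direction.

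Bcl2, the founding survival gene of the family, read 35.1, 34.9 and 32.6 CPM with DMSO and 44.1, 45.9 and 44.3 CPM with iBRD9. The groups did not overlap, and the libraries within each group lay close together. It rose 1.31-fold (log2 fold change 0.39, SE 0.063, adjusted p = 0.000988), a size that 50.7% of tested genes exceeded. Bcl2l2, which encodes BCL-W, read 50.5, 43.8 and 45.3 CPM with DMSO and 56.1, 51.1 and 53.8 CPM with iBRD9. The highest DMSO library, replicate 1, nearly reached the lowest iBRD9 library. Its rise was small and just inside the threshold (0.21, SE 0.075, adjusted p = 0.0407). The call was lost without any 1 of DMSO replicates 2 and 3 and iBRD9 replicates 1 to 3 (0.16 to 0.24, adjusted p = 0.0589 to 0.165) and without a filter (adjusted p = 0.0563), and it held without DMSO replicate 1 (adjusted p = 0.000186, the lowest of its alternatives). With library size alone the value was 0.31.

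Mcl1, a survival gene whose protein turns over quickly, was the most abundant member and the one that moved least. It read 228, 235 and 242 CPM with DMSO and 240, 245 and 236 CPM with iBRD9, and the groups overlapped. The log2 fold change was 0.03 with a 95% interval from -0.09 to 0.15 (adjusted p = 0.623). Scaling by library size alone gave 0.14 (adjusted p = 0.0313, where its other alternatives reached 0.998), a scaling that raises the median log2 fold change of all tested genes by 0.106.

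The effectors parted. Bak1, whose protein sits in the mitochondrial membrane, read 35.3, 35.5 and 35.8 CPM with DMSO and 19.4, 18.3 and 18.7 CPM with iBRD9. Both groups were tight, and the gap between them was far wider than the spread in either (35.5 ± 0.206 against 18.8 ± 0.540 CPM, SD, n = 3). The fall was 1.89-fold (log2 fold change -0.92, SE 0.066), with an adjusted p of 1.77e-05, the lowest of the 9 members. Bax, the other effector, read 57.9, 67.8 and 73.0 CPM with DMSO and 60.6, 59.4 and 66.6 CPM with iBRD9. The groups overlapped, and DMSO replicate 1 was the lowest of all 6 libraries. The log2 fold change was -0.09 (95% interval -0.30 to 0.12, adjusted p = 0.422). Without DMSO replicate 1 Bax was called lower (-0.19, adjusted p = 0.00393, with up to 0.862 over its alternatives), and with library size alone its value was 0.02.

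Bcl2l11, the BH3-only gene that encodes BIM, had the largest change among the tested members. It read 19.0, 14.2 and 12.9 CPM with DMSO and 33.6, 30.6 and 33.8 CPM with iBRD9. DMSO replicate 1 was the highest of the vehicle libraries and still well below the lowest iBRD9 library. The rise was 2.13-fold (log2 fold change 1.09, SE 0.136, adjusted p = 0.000257, from 15.4 ± 3.21 to 32.7 ± 1.79 CPM, SD, n = 3), exceeded in size by 13.1% of tested genes. Leaving out DMSO replicate 1 gave 1.26 and leaving out DMSO replicate 3 gave 0.97, the extremes of its 13 alternatives, each of which called it.

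Bbc3, which encodes PUMA, is a p53 target and had the fewest counts of the tested members. It read 5.25, 3.83 and 4.43 CPM with DMSO and 6.24, 5.28 and 5.53 CPM with iBRD9. The groups were separated by a hair, since DMSO replicate 1 came just under iBRD9 replicate 2. The log2 fold change of 0.34 (95% interval -0.01 to 0.69) did not pass (adjusted p = 0.0806). It passed without DMSO replicate 1 (0.46, adjusted p = 0.00539) and with library size alone (0.445, adjusted p = 0.0398), with up to 0.267 over its alternatives.

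Bid links the death receptors to mitochondria once the protease made from Casp8 has cut its product. It read 57.6, 63.7 and 65.9 CPM with DMSO and 46.7, 49.2 and 49.4 CPM with iBRD9. The groups did not overlap. The fall was 1.29-fold (log2 fold change -0.37, SE 0.070, adjusted p = 0.00214). Pmaip1, the BH3-only gene of NOXA, had 0 counts in each library. Given totals of 22846391 to 29680952, a count of 0 allows up to 0.101 to 0.131 CPM, and no fold change can be given. Whether the authors' counting could assign reads to this gene was not tested.

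**Figure D2:**
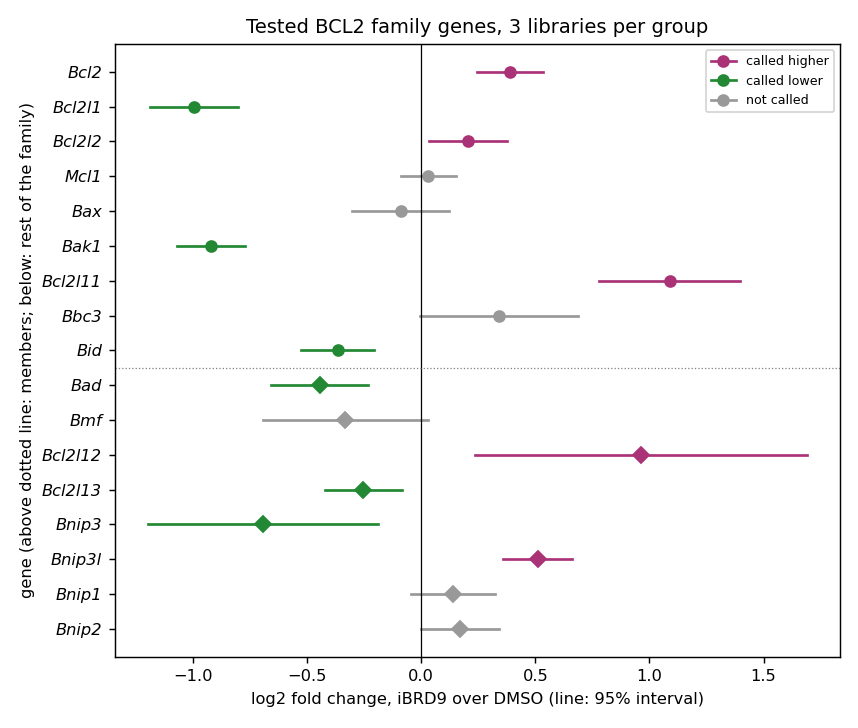
Log2 fold change of iBRD9 over DMSO (x axis) with its 95% interval for the 9 tested members (circles, above the dotted line) and the 8 tested genes of the rest of the family (diamonds, below it), coloured by call. Bcl2l11 has the highest value (1.09) and Bcl2l1 the lowest (-0.997). The intervals of Mcl1, Bax and Bbc3 among the members, and of Bmf, Bnip1 and Bnip2 below the line, include 0.

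Some exons of these genes are shared with neighbours. Whether the counting used strand is not given in the sources used here, so reads from exons shared by opposite strands may not have been told apart. In the GENCODE M21 annotation Bid and Bcl2l13 lie on opposite strands and share 628 exon bases, 17.7% of the exon length of Bid, and both were lower. Bak1 shares 437 bases (18.2%) with Ggnbp1 on the opposite strand, whose log2 fold change was 0.51, against -0.92 for Bak1. Bcl2 shares 6.09% of its exon length with D630008O14Rik, which had 5 counts in all, and Bcl2l2 shares 13.3% with Gm20521 on the same strand, which had 0. Bax shares 12.2% with Gm45808, whose ID has no row in the table.

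Per kilobase of exon, the scale on which different genes can be set side by side, Mcl1 stood highest with DMSO at 68.8 ± 2.15 CPM per kb (SD, n = 3). Bax followed at 42.0 ± 4.87, Bid at 17.6 ± 1.20, Bak1 at 14.8 ± 0.0854, Bcl2l2 at 10.4 ± 0.793 and Bcl2l1 at 8.01 ± 0.505 CPM per kb. The lowest were Bcl2 at 3.74 ± 0.15, Bbc3 at 2.12 ± 0.337 and Bcl2l11 at 1.92 ± 0.399 CPM per kb, of which Bbc3 and Bcl2l11 did not differ beyond their spread. With iBRD9 the order of the top 3 was the same. Below them Bcl2l2 (12 ± 0.563 CPM per kb) stood above Bak1 (7.80 ± 0.224), and Bcl2 (4.89 ± 0.107) above Bcl2l11 (4.07 ± 0.223) and Bcl2l1 (4.02 ± 0.288), which did not differ beyond their spread. Bbc3 was last at 2.68 ± 0.233 CPM per kb. Lengths are the union of GENCODE M21 exons. With the longest transcript instead, Bcl2l1 stood above Bcl2l2 with DMSO (14.3 against 12.2 CPM per kb). With iBRD9, Bcl2l1 (7.18) then stood above Bcl2 (6.22), and Bcl2l11 (6.49) and Bcl2 did not differ beyond their spread.

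**Figure D3:**
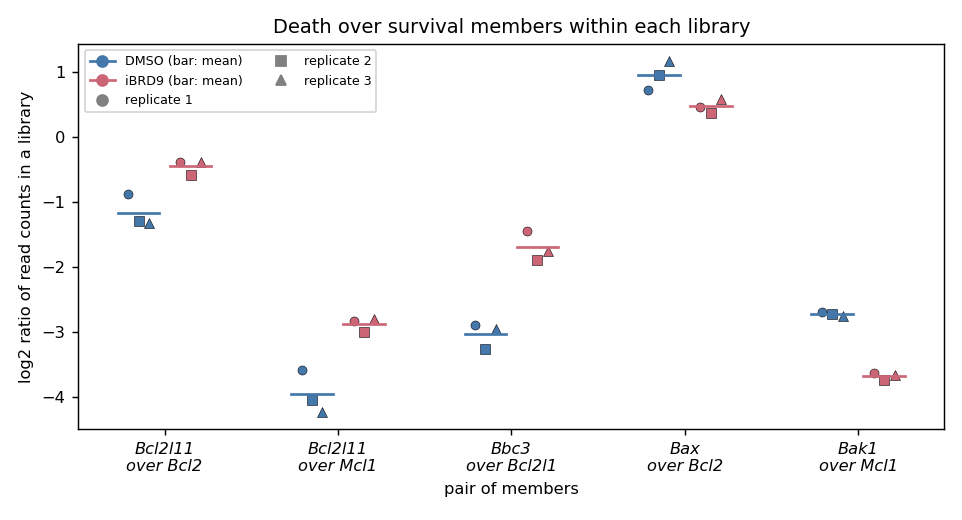
Log2 ratio of the read counts of 2 members within a library (y axis) for 5 pairs of a death gene over a survival gene (x axis); symbols give the replicate number, colours the group and bars the group mean. The ratios with Bcl2l11 or Bbc3 on top are higher in all iBRD9 libraries, and those with Bax or Bak1 on top are lower.

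Ratios of a death gene to a survival gene were taken within each library, where library scaling cancels, and are given with no test. Bcl2l11 over Bcl2, whose proteins bind each other, stood at log2 ratios of -0.885, -1.30 and -1.33 with DMSO and -0.39, -0.58 and -0.39 with iBRD9. The mean rose by 0.72 on the log2 scale, although Bcl2 itself was higher. Against Mcl1, which hardly moved, the ratio of Bcl2l11 rose by 1.07, from -3.95 ± 0.334 to -2.88 ± 0.104 (SD, n = 3).

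Bbc3 over Bcl2l1 had the widest difference of the 5 pairs, with means of -3.04 ± 0.197 and -1.70 ± 0.228, a difference of 1.34. The pairs with an effector that were formed went the other way, and neither has Bcl2l1, whose log2 fold change (-0.997) was below that of either effector, as its denominator. Bax over Bcl2 stood at 0.72, 0.96 and 1.16 with DMSO and 0.46, 0.37 and 0.59 with iBRD9, a difference of -0.47, and Bak1 over Mcl1 went from -2.73 ± 0.0368 to -3.68 ± 0.0575. In all 5 pairs the groups did not overlap, where 68.0% of single tested genes had groups that did not. A share over other pairs of genes was not computed. In the widest pair Bcl2l1 had the larger change, and its numerator Bbc3 (0.34) was not called. Bax, the numerator of another pair, was not called either (-0.09). A ratio with Pmaip1 cannot be formed.

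In 7 of the 9 tested members DMSO replicate 1 lay to the side of iBRD9, seen from the other vehicle libraries. The share over all tested genes was not computed. Both differences are taken from the same mean of DMSO replicates 2 and 3, which by itself tilts their signs to agree. For Bcl2l11, DMSO replicate 1 stood 0.49 above that mean on the log2 scale, where iBRD9 stood 1.27 above it. Bbc3 had the corresponding values 0.35 and 0.46, and Bax had -0.28 and -0.18. Bcl2l1 was an exception, with DMSO replicate 1 at 0.14 and iBRD9 at -0.95. Bak1 showed next to no displacement (-0.01 against -0.93). Without that library 4 members were called higher and 4 lower, where 74.0% of all genes then tested were called, 37.0% higher and 37.0% lower.

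**Figure D4:**
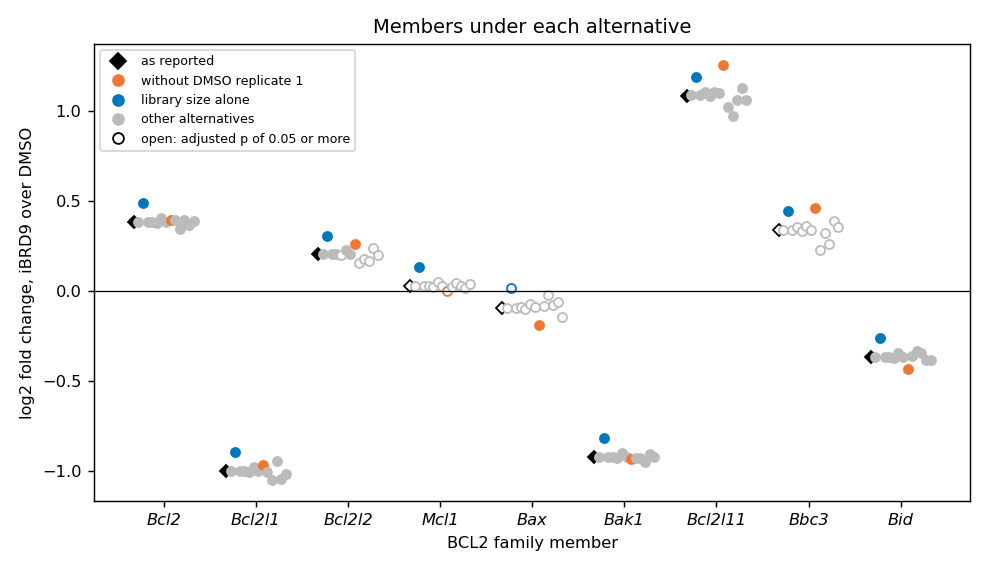
Log2 fold change of each tested member (x axis) as reported and under 13 alternatives of scaling, test, filter, replicate block and left-out library; filled symbols have an adjusted p under 0.05 and open ones do not. Bcl2, Bcl2l1, Bak1, Bcl2l11 and Bid are filled throughout, while Bcl2l2, Mcl1, Bax and Bbc3 have both kinds.

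By its likeness over the 6 libraries, Bak1, the member with the lowest adjusted p, was nearest to Ptprf (Pearson r = 0.9998), Lrba (0.9992) and Pitpnc1 (0.9990). These genes were also lower with iBRD9, by log2 fold changes of -1.20, -0.26 and -1.55. The 6 libraries are 2 groups of 3, and 376 genes had an r of at least 0.99 with Bak1, so the likeness describes a shared difference between groups.

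Of 19 further family genes, 8 had enough reads to be tested. Here 2 were higher, 3 lower and 3 did not pass (median log2 fold change -0.06). Of all tested genes, 29.8% were called higher and 30.9% lower. Bnip3l, whose product marks mitochondria for removal, rose from 79.1 ± 2.30 to 113 ± 7.52 CPM (SD, n = 3; 0.51, adjusted p = 0.000328), and all its DMSO libraries lay below all its iBRD9 libraries. Bad, a BH3-only gene held inactive by survival kinases, fell from 33.1 ± 3.35 to 24.4 ± 1.52 CPM (-0.44, adjusted p = 0.00349). It shares 20.5% of its exon length with Gpr137 on the opposite strand, whose log2 fold change was -0.15.

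Calls on the other 3 genes were not stable. Bcl2l12 was called higher (0.96, adjusted p = 0.0284) from values of 2.99, 1.14 and 1.39 CPM with DMSO and 3.35, 3.88 and 3.504 CPM with iBRD9, in which DMSO replicate 1 nearly reached iBRD9. The call was lost without any 1 of the other 5 libraries (0.70 to 1.01, adjusted p = 0.0685 to 0.0893), and without DMSO replicate 1 the value was 1.49 (adjusted p = 9.06e-07). Of its exon length 28.9% is shared with Gm15545 on the opposite strand (0.58). Bnip3 was called lower (-0.69, adjusted p = 0.0244) and lost without DMSO replicate 1 or any 1 iBRD9 library, at values about as large (-0.66 to -0.77, adjusted p = 0.0568 to 0.0814). Without DMSO replicate 3, its highest library, it stood at -0.39 (adjusted p = 0.0444). The call of Bcl2l13 as lower (-0.25, adjusted p = 0.016) was lost with library size alone (-0.15) and without DMSO replicate 2 or iBRD9 replicates 1 or 2.

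Other genes of the family were barely read. Bcl2a1a, Bcl2a1c and Bcl2a1d had 0 counts and Bcl2a1b had 1 over all 6 libraries; these near-identical copies share reads, which the authors' counting may have left out. Bok, Bik, Hrk, Bcl2l10, Bcl2l14 and Bcl2l15 had 4 to 14 counts each. Moap1 had 1 count, and 87.7% of its exon length is shared with Gm20604, which had 317.

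**Figure D5:**
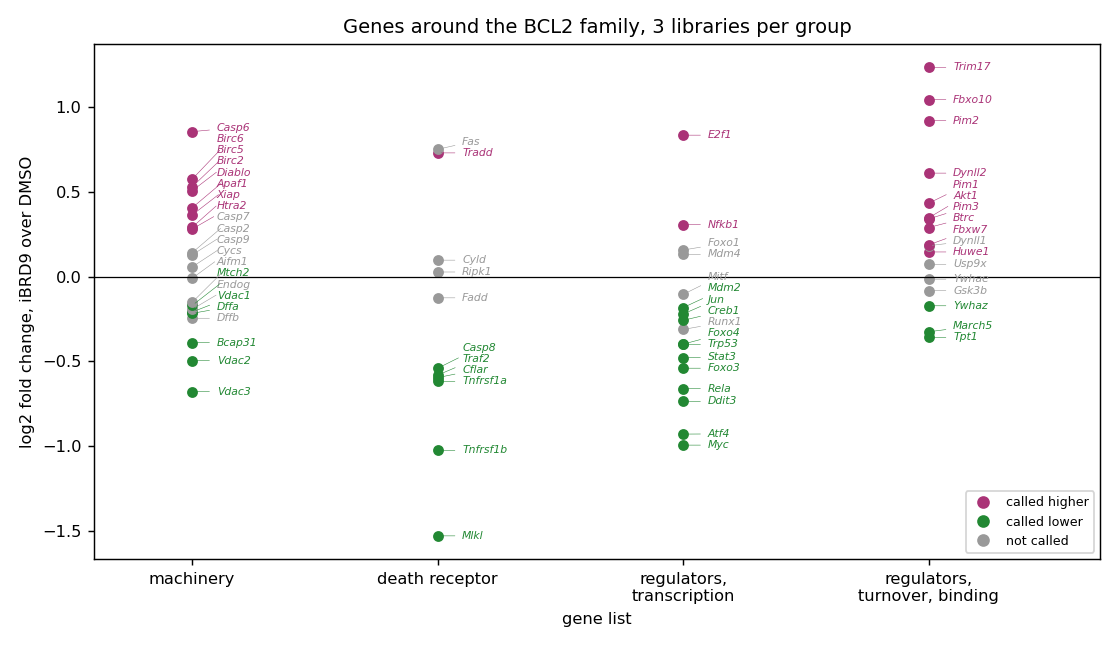
Log2 fold change of iBRD9 over DMSO (y axis) of tested genes of 4 lists of partners and regulators of the family (x axis), coloured by call. In the death receptor and transcription lists most calls are lower, with Mlkl the lowest (-1.53), and in the turnover and binding list most are higher. Over all tested genes 29.8% were called higher and 30.9% lower.

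Downstream of the family, 22 of 23 genes of the mitochondrial death machinery were tested. Of these, 9 were higher, 6 lower and 7 did not pass (median 0.09, against 0.01 over all tested genes). Calls over all tested genes were 29.8% higher and 30.9% lower. The caspase gene Casp6 rose (0.85, from 8.97 ± 3.40 to 16.2 ± 1.07 CPM), as did the caspase inhibitor genes Birc6 (0.57) and Birc5 (0.53). Apaf1, the scaffold that cytochrome c activates, was higher by 0.36 (adjusted p = 0.0121), a call lost without DMSO replicate 2 or iBRD9 replicate 2. Cycs, the cytochrome c gene itself, stood at -0.01 (adjusted p = 0.882), and the initiator Casp9 at 0.06 (adjusted p = 0.626). Diablo, whose product blocks the caspase inhibitors, rose by 0.41.

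Genes of the outer membrane channels to which family proteins bind were lower, among them Vdac3 (-0.68) and Vdac2, a partner of BAK (-0.50, 887 ± 40.8 to 629 ± 20.2 CPM). Vdac1 was called lower (-0.21), but not with library size alone (-0.10) or without any 1 library other than DMSO replicate 1. Bcap31, an endoplasmic reticulum protein gene, fell by 0.39 on the log2 scale. Dffa, the inhibitor of the caspase-activated nuclease, was called lower (-0.22), but not without any 1 of DMSO replicates 2 and 3 and iBRD9 replicates 1 and 2, or with library size alone (-0.11). Birc3 was at 0 in all libraries.

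In the death receptor pathway, which reaches the mitochondria through Bid, 11 of 16 genes were tested. Of these, 1 was higher, 6 lower and 4 did not pass (median -0.54), where 29.8% of all tested genes were higher and 30.9% lower. Mlkl, the executor of necroptosis, fell from 44.5 ± 1.59 to 15.5 ± 0.540 CPM (-1.53, adjusted p = 2.89e-06). The receptor genes Tnfrsf1b (-1.02) and Tnfrsf1a (-0.62) were lower, and so was Cflar (-0.59), which restrains Casp8. Casp8, whose product cuts BID, fell by 0.54 on the log2 scale, from 33.8 ± 3.78 to 23.2 ± 0.769 CPM. Tradd, an adaptor of the receptors, rose (0.73). Fas itself was at 0.533 and 0.911 CPM (0.75, adjusted p = 0.0878) and passed without DMSO replicate 2 (1.22, adjusted p = 0.0176). Ripk3 and Tnf were at 0.

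Among transcription factors and regulators of family transcription, 17 of 18 were tested. Of these, 2 were higher, 11 lower and 4 did not pass (median -0.31), where 29.8% of all tested genes were higher and 30.9% lower. Trp53, which acts on Bbc3, Bax and Pmaip1, fell by 0.40 on the log2 scale (71.0 ± 6.72 to 53.8 ± 1.48 CPM). Foxo3, known to act on Bcl2l11 and Bbc3, fell by 0.54, while Foxo1 stood at 0.16 (adjusted p = 0.0777, and 0.00668 with library size alone). The stress factors Atf4 (-0.93) and Ddit3 (-0.73) were lower, and so were Myc (-0.99) and Rela (-0.66). E2f1 (0.83) and Nfkb1 (0.31) rose. Mitf, which acts on Bcl2, was at 1297 ± 70.7 and 1206 ± 33.8 CPM (-0.10, adjusted p = 0.184), and was called lower without DMSO replicate 1 (-0.16, adjusted p = 0.00374), while library size alone put it at 0.00187 (adjusted p = 0.979).

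Genes for the turnover and binding of family proteins were tested in 18 of 19 cases, of which 10 were higher, 4 lower and 4 did not pass (median 0.18). Fbxo10, a ubiquitin ligase subunit of BCL2, rose from 29.6 ± 2.00 to 61.0 ± 0.647 CPM (1.04, adjusted p = 1.26e-05). Dynll2, a light chain that tethers BMF, rose by 0.61. The kinase genes Pim2 (0.92) and Pim1 (0.43) were higher, the call on Pim1 being lost without iBRD9 replicate 2 (adjusted p = 0.0787). Tpt1, a partner of MCL1 and BCL-XL, fell by 0.36 on the log2 scale and March5, a mitochondrial ubiquitin ligase, by 0.32. Ywhaz was called lower (-0.17, adjusted p = 0.0227), but not with library size alone or without any 1 library other than DMSO replicate 1. Each count is read against the 29.8% of tested genes called higher and 30.9% called lower.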

How the data were processed

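RNA of 6 Melb-a cultures, 3 with DMSO and 3 with iBRD9, was read from poly(A)-selected libraries. The authors deposited 1 table of raw read counts per gene ID; the submitters' processing notes name CASAVA 1.8.2, Bowtie2 2.4.5 and build GRCm39, and for the counter, annotation and strand setting nothing is stated in those sources. Of 35275 IDs, 34490 matched a symbol, and the rest held 0.0899% of counts. Counts were fitted across all genes with edgeR 4.0.16 (R 4.3.3): filterByExpr with a minimum count of 10, TMM scaling, robust quasi-likelihood F-test of treatment, Benjamini-Hochberg adjustment over 13602 genes, called at 0.05. All adjusted p-values in the report are from this fit or a named alternative of it, including DESeq2 1.42.0 and limma-voom 3.58.1. Intervals are 95% and limits for a count of 0 use 3 counts; both cover the fit's or counting error only. On simulated data of 13411 genes, 92.6% of 95 genes changed 2-fold and 68.7% of 99 genes changed 1.5-fold were recovered, with 6.02% false calls. There all genes had the same dispersion, and no library was made to stand apart. In the real data 60.7% of genes were called and DMSO replicate 1 stood apart, so the simulated rates need not hold for them. No pair of libraries agreed within sampling noise. Lengths and overlaps came from GENCODE M21 and promoters from RefSeq, both on GRCm38.

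The members and gene lists were chosen with earlier results of these data known. Members are all named; from each further list the called genes with the largest change were named, up to 4 in each direction whose log2 CPM averaged 1 or more, and others by role. Some listed genes are counted but not reported here by name or drawn.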

Additional observations from a re-analysis of the deposited data

How the results depend on the processing

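Bcl2, Bcl2l1, Bak1, Bcl2l11 and Bid kept their direction and call in all 13 alternatives of scaling, test, filter, replicate block and left-out library. With library size alone, 5 family genes were called higher instead of 3, 2 death genes instead of 1, 4 further family genes instead of 2, 2 death receptor genes instead of 1 and 4 transcription regulators instead of 2; 3 machinery genes were called lower instead of 6 and 2 turnover genes instead of 4, and Bax turned to 0.018. Over all tested genes that scaling called 4999 higher instead of 4057 and 3385 lower instead of 4205. Without a filter 1 survival gene was called higher instead of 2, and 4068 of all tested genes instead of 4057. Leaving out 1 library at a time gave 1 to 2 survival genes higher, 1 to 2 death genes higher, 1 to 3 further family genes higher and 1 to 4 lower, 3 to 6 machinery genes lower, 1 to 2 death receptor genes higher and 2 to 5 turnover genes lower. Over all tested genes the same fits called from 6865 of 13895 (without DMSO replicate 2) to 10311 of 13933 (without DMSO replicate 1). The main fit called 8262 of 13602. Each fit with a library left out also has fewer samples, and the cause of the changes was not tested.

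With the replicate number as a block, 7937 genes were called instead of 8262, and 3 family genes were higher and 3 lower, as without it. Deviations of same-numbered libraries correlated at 0.118, 0.0599 and 0.0248. DMSO replicates 1 and 2 correlated best with the iBRD9 library of their own number, and DMSO replicate 3 with iBRD9 replicate 2 (0.0469). Whether the libraries were paired cannot be told from these low values. Lengths of the longest transcript were chosen after seeing the data. Bbc3, with 97 to 192 counts a library, has the widest interval of the tested members.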
